A study of Mus musculus with 42 samples.

Results

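The genes described here are 8 secreted or membrane antagonists of Wnt, Nodal and BMP signalling: Cer1, Dkk1, Frzb, Sfrp5, Sfrp1, Shisa2, Chrd and Nog. They were chosen by name, each through the RefSeq accession of its array probe, out of 22201 accessions measured, and each was represented by 1 probe printed as 1 spot. Total RNA was measured on 42 one-colour Agilent arrays, 3 for each of 14 groups of mouse cells. All groups came from 1 embryonic stem cell (ESC) line that carries GFP at Gsc and RedStar at Hhex, so every sample, ESCs included, holds both reporter alleles. GSC (G) marks primitive streak and mesendoderm, and HHEX (H) marks definitive endoderm. Untreated groups were ESCs, unsorted cells on day 2 (d2) of differentiation towards anterior definitive endoderm (ADE), and 9 sorted populations: G- and G+ on d3 and on d4, G-, Glow and Ghigh on d5, and G+H- and G+H+ on d6. The other 3 groups were d6 cultures of a series with EPZ6438, an inhibitor of EZH2, the catalytic subunit of the repressive complex PRC2. Control cells had DMSO throughout, ES_EPZ cells had 2.5 µM EPZ6438 as ESCs and DMSO during differentiation, and ADE_EPZ cells had DMSO as ESCs and 2.5 µM EPZ6438 during differentiation. The labels name no sort for these cultures, and a sort on 1 or both reporters leaves each sorted population open to mixtures. In bulk RNA, more cells that express a gene and more RNA per cell cannot be told apart.

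In the gastrulating embryo, anterior endoderm secretes factors that keep Wnt, Nodal and BMP ligands away from the overlying epiblast, and this protects the tissue that will form the forebrain. Some of these factors bind the ligand itself. CER1 binds Nodal and BMP proteins, the secreted Frizzled-related proteins (FRZB, SFRP1 and SFRP5) carry a Frizzled-like domain that binds Wnts, and chordin (CHRD) and noggin (NOG) bind BMPs. DKK1 instead blocks the Wnt co-receptors LRP5 and LRP6, and SHISA2 holds immature Frizzled and FGF receptors inside the cell.

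Promoter sequence was held for 6 of the 8 genes, all but Sfrp1 and Nog. The 250 bases before the start of 4 of them are shown because they stand for the order in which the genes came up, as described later: Dkk1 and Cer1 from d3, Sfrp5 from d4 and Shisa2 on d5. The windows are from RefSeq on GRCm38.p6, each read 5′ to 3′ along the gene: Cer1 at chr4:82885152-82885401 (minus strand), Dkk1 at chr19:30549497-30549746 (minus), Sfrp5 at chr19:42202253-42202502 (minus) and Shisa2 at chr14:59625031-59625280 (plus). Capitals mark matches on either strand to a TATA box (TATAAA), a bicoid-class homeodomain site (TAATCC), a forkhead site (TGTTTAC, with TATTTAC as a second form), a TCF/LEF site (CTTTGAT, with CTTTGAA as a second form), a GATA site (AGATAA) or a SMAD site (CAGACA), none of which overlapped another.
Cer1: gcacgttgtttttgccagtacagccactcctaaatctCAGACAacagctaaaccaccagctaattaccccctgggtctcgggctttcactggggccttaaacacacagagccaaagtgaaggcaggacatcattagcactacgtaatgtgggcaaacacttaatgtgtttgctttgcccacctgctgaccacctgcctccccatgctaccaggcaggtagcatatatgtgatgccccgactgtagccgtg
Dkk1: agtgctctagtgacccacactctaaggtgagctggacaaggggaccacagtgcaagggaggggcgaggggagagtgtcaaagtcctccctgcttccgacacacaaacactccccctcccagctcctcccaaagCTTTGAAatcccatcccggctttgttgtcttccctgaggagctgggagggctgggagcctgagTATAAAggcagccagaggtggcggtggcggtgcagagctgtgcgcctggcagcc
Sfrp5: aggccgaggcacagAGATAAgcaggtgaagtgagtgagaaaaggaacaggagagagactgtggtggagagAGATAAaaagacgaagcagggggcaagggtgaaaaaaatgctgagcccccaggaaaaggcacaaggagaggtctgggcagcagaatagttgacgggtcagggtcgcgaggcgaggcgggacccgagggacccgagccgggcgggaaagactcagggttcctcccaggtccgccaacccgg
Shisa2: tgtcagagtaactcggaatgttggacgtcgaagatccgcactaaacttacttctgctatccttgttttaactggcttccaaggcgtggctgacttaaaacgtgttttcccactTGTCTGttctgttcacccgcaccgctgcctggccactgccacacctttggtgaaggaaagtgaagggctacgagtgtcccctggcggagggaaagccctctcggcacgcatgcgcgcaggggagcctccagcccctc
Dkk1 held a TATA box from 54 to 49 bases before the start, found in 12.37% of 32851 promoters, and a TCF/LEF match from 117 to 111 bases before it, found in 7.48%. Sfrp5 held 2 GATA matches (9.99% of promoters hold at least 1), and Cer1 and Shisa2 held 1 SMAD match each (17.13%). Neither the homeodomain letters (6.25% of promoters) nor the forkhead letters (5.76%) were in any of the 6 windows, and Frzb and Chrd held no match at all. Counts of CpG ranged from 5 in Cer1 and 6 in Dkk1, beside a median of 6 over all promoters, through 13 in Sfrp5, 14 in Shisa2 and 16 in Frzb to 28 in Chrd, where 92.4% of promoters held fewer.

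Values are the deposited log2 intensities, and differences are log2 fold changes from 1 limma fit over all arrays, given ± SE. A gene was called at an adjusted p of at most 0.01 with a log2 fold change of at least 1.5 in size. Levels of different genes are not compared, since each probe has its own response. Between 24458 and 40398 of 55681 probes were well above background on an array. The untreated arrays lay on 5 slides: 3 with replicates 1 and 2, and 2 with replicate 3, which were scanned on a different day. The labels do not say whether replicates came from separate cultures, while the study describes its expression data as means over replicate experiments done independently. The p values measure the spread between these arrays. Of the reporter genes, Gsc followed the d3 sort: it averaged 11.78 in d3 G+ and 8.23 in d3 G- (SD 0.44 and 0.46, n = 3). Hhex averaged 12.63 in G+H+ cells of d6 and 12.17 in G+H- cells (SD 0.19 and 0.43, n = 3). Hhex thus differed by less than 1.5 on the log2 scale between the sorted d6 populations and was not called. Its arrays did not overlap, as for 4.82% of all genes in that direction. All 7 anterior definitive endoderm markers (Foxa2, Sox17, Hhex, Gsc, Lhx1, Otx2 and Cxcr4) were called higher in d6 G+H+ than in ESCs. Among them, Gsc and Hhex carry the reporters used for the sort. All 5 pluripotency genes were called lower. Of all genes, 5.72% were called higher and 5.21% lower in this comparison. Visceral endoderm is an extraembryonic tissue that also secretes CER1 and DKK1. Of its 6 markers, Hnf4a, Ttr and Apoa1 were called higher in d6 G+H+, while Amn, Cubn and Afp were not. Afp was above background on none of the d6 G+H+ arrays. The part of such cells in the results was not tested.

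Cer1, which binds Nodal and BMP ligands, had the widest range of group means among the 8 genes. Its arrays gave 4.75, 4.97 and 4.81 in ESCs and 5.23, 4.82 and 4.78 at d2, and none of these 6 was well above background. Values then reached 6.88, 9.78 and 9.15 in d3 G+, 8.72, 8.13 and 9.88 in d4 G+, and 11.47, 12.30 and 14.91 in d5 Ghigh. On d6 the G+H- arrays read 15.82, 15.48 and 14.72, and the G+H+ arrays 16.13, 15.86 and 15.78. The d3 and d4 G+ arrays overlapped each other, and every d6 array lay above all arrays of d4 and earlier. Against the dimmest probes above background, the Cer1 mean was 2051-fold higher in d6 G+H+ and 1370-fold higher in d6 G+H- than in ESCs. These are point estimates and not lower bounds, since the spread between arrays is not in them. For d6 G+H+ the limma log2 fold change was 11.08 ± 0.86 (confidence interval 9.33 to 12.83, adjusted p = 2.34e-12). For d6 G+H- it was 10.50 ± 0.86 (8.75 to 12.25, adjusted p = 9.36e-12).

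Dkk1, the blocker of LRP5 and LRP6, had covered 60.8% of its change by d3 G+. Its ESC arrays read 5.22, 6.38 and 4.75, with 2 of 3 well above background, and its d2 arrays read 6.80, 6.86 and 6.04. In d3 G+ the values were 10.38, 10.14 and 9.35, in d4 G+ 10.47, 9.93 and 9.81, in d5 Ghigh 11.64, 11.39 and 12.24, and d6 G+H+ arrays gave 12.63, 12.23 and 13.74. The main step was thus between d2 and d3 G+, whose arrays did not overlap, while d3 G+ and d4 G+ overlapped. Dkk1 rose by 7.42 ± 0.57 from ESCs to d6 G+H+ (adjusted p = 1.75e-12).

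Frzb, a secreted Frizzled-related protein, reached its d6 level by d3 G+. It read 5.54, 4.18 and 4.57 in ESCs and 4.88, 4.53 and 5.21 at d2, with 1 of 3 arrays of each group well above background. In d3 G+ it read 8.87, 10.49 and 10.27, which was 109.8% of the later d6 G+H+ change, measured from an ESC level near background. Overlap with d3 G+ was seen in d4 G+ (9.26, 9.50 and 9.23) and in d5 Ghigh (8.28, 8.72 and 9.71). The d6 G+H+ arrays also overlapped it, at 8.74, 9.71 and 9.81. In d5 Glow, by contrast, Frzb read 6.68, 7.31 and 8.43, below every d3 G+ array. Frzb rose by 4.66 ± 0.48 from ESCs to d6 G+H+ (adjusted p = 1.28e-09), and no later step from d3 G+ onward was called for it.

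Sfrp5, the second of the Frizzled-related proteins, was flat until d3 and came up a day later than Frzb. Its arrays read 6.12, 5.95 and 5.96 in ESCs and 5.57, 6.60 and 6.43 in d3 G+, which overlap. They read 10.10, 8.30 and 9.48 in d4 G+, 11.40, 11.33 and 11.95 in d5 Ghigh. The d6 G+H- arrays read 15.35, 14.22 and 14.28, and those of d6 G+H+ read 15.68, 14.86 and 14.84. From d3 G+ to d6 G+H- each step separated all arrays of the later group from the earlier one. The change from ESCs to d6 G+H+ was 9.12 ± 0.41 (adjusted p = 5.16e-18), of which 36.0% was reached in d4 G+ and 60.9% in d5 Ghigh.

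Sfrp1 and Shisa2 came up last, on d5. Sfrp1, the third Frizzled-related protein, read 6.90, 7.09 and 7.61 in ESCs, 5.75, 6.54 and 5.89 in d3 G+ and 6.51, 5.96 and 6.24 in d4 G+. It read 9.21, 9.47 and 10.60 in d5 Ghigh, while the d6 G+H- arrays gave 12.31, 11.98 and 11.70 and the d6 G+H+ arrays 12.30, 12.09 and 11.98. All d2, d3 and d4 arrays lay below every ESC array, although the difference of d2 from ESCs missed the call (-0.94 ± 0.38, adjusted p = 0.165). Shisa2, which retains Frizzled receptors, read 8.79, 7.52 and 9.02 in ESCs, 7.47, 7.60 and 7.47 in d3 G+ and 8.26, 7.80 and 7.99 in d4 G+. It read 9.56, 10.02 and 11.50 in d5 Ghigh, while the d6 G+H- arrays gave 12.54, 12.79 and 12.06 and the d6 G+H+ arrays 12.55, 13.16 and 12.77. Every d5 Ghigh array of both genes thus lay above every ESC and d4 array. From ESCs to d6 G+H+ Sfrp1 rose by 4.92 ± 0.38 (adjusted p = 1.88e-12) and Shisa2 by 4.39 ± 0.35 (adjusted p = 6.28e-12).

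The BMP-binding antagonists Chrd and Nog, which in the embryo are made by the node and the axial mesoderm, stayed level. Over all 42 arrays Chrd lay between 6.01 and 7.25 and Nog between 7.14 and 8.86, and both were well above background on every array. Group means spanned 0.42 for Chrd and 0.94 for Nog, beside median SDs within a group of 0.22 and 0.42. In d6 G+H+ against ESCs Chrd differed by 0.15 (95% interval -0.31 to 0.62, adjusted p = 0.808) and Nog by -0.27 (-1.05 to 0.52, adjusted p = 0.802). Neither gene was called in any of 16 pairwise comparisons, where the largest difference in size was 0.58. Of 5 node and axial mesoderm markers (T, Noto, Foxj1, Shh and Foxa2), 1 was called higher in d6 G+H+ than in ESCs, Foxa2, which is also a marker of endoderm, and T, Foxj1 and Foxa2 were above background on all arrays of both d6 populations.

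**Figure D1:**
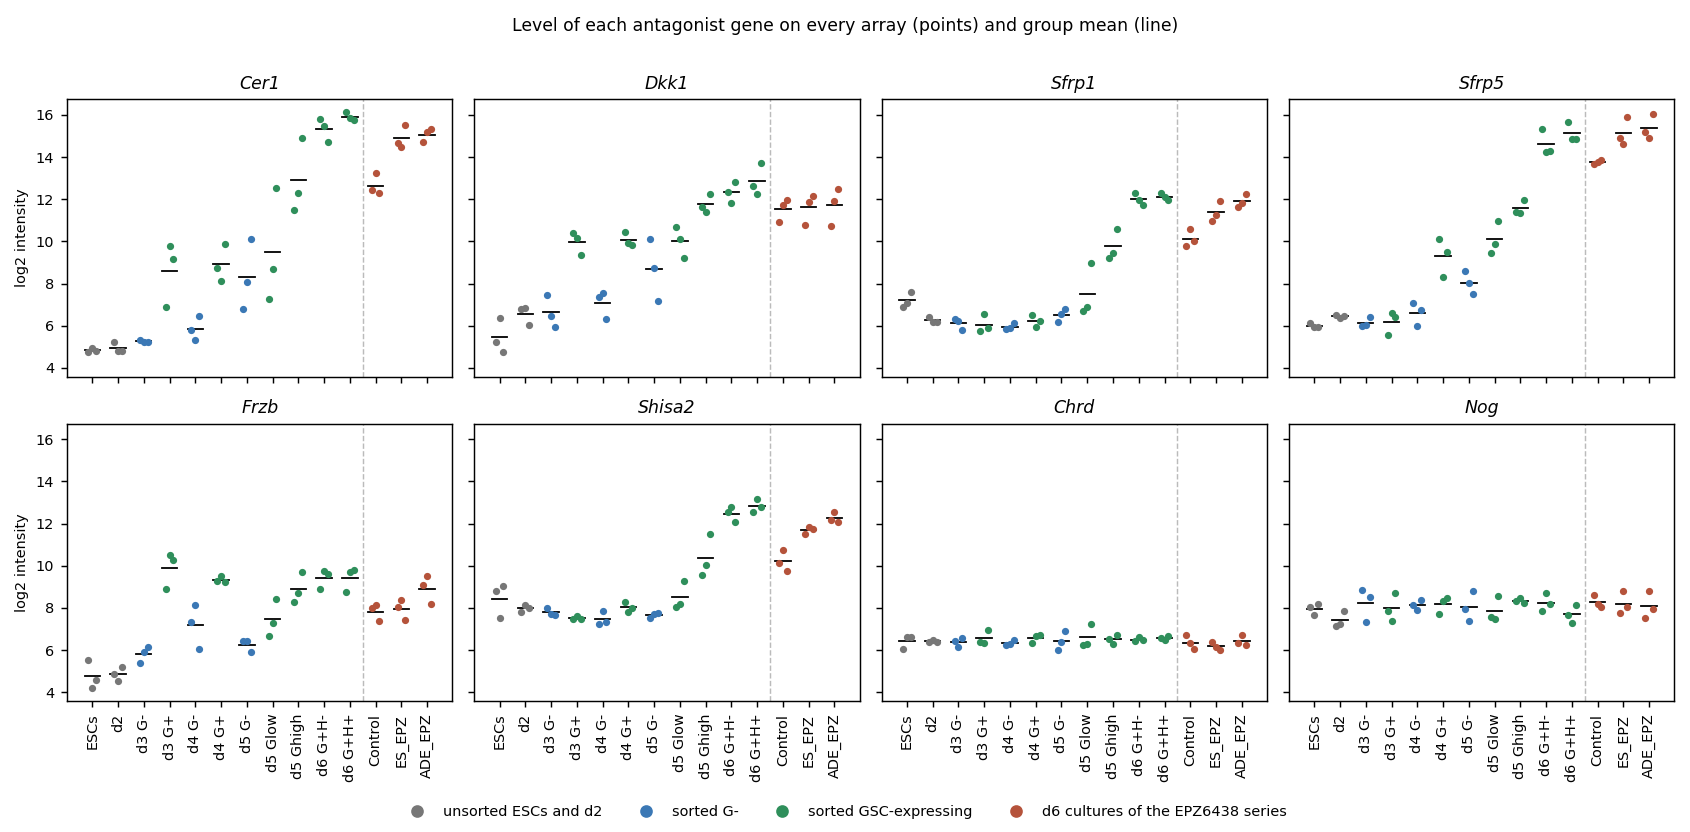
Log2 intensity (y axis) of the 8 antagonist genes in 14 groups (x axis), with a point for each array and a line for the mean of 3 arrays. The dashed line parts the untreated groups from the EPZ6438 series. Cer1, Dkk1 and Frzb were first called higher than in the population before in d3 G+, Sfrp5 in d4 G+ and Sfrp1 and Shisa2 in d5 Ghigh, while Chrd (6.01 to 7.25) and Nog (7.14 to 8.86) stay level.

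From ESCs to d6, 6 of the 8 antagonists were called higher in G+H+ and the same 6 in G+H-, where 5.72% and 5% of all genes were called higher. The median change of the 8 genes was 4.79 and 4.72, and the median over all genes lay within 0.0213 of 0 in every comparison. The 6 calls held with each of the alternative settings and with each array left out. The successive steps then gave the order. From ESCs to d2 none of the 8 was called (0.36% of all genes), and 1, Sfrp1, had an unadjusted p under 0.05. From d2 to d3 G+, the step with 2.95% of genes called higher, Cer1 (3.66 ± 0.86, adjusted p = 0.00228), Dkk1 (3.39 ± 0.57, 3.23e-05) and Frzb (5.00 ± 0.48, 1.16e-09) rose. With the deposited values of all arrays, Cer1 was on average 12.6-fold higher by this step (limma confidence interval 1.91 to 5.41 in log2). Its difference was 2.67 and no longer called with a normexp offset of 50 (adjusted p = 0.0219), and 6.31 with 75th percentile scaling. Without replicate 2 or 3 of d2 or of d3 G+ it was 3.07 to 3.59 and not called (adjusted p from 0.0112 to 0.0293). From d3 G+ to d4 G+ only 6 genes, 0.027% of all, were called higher, and Sfrp5 was 1 of them (3.09 ± 0.41, adjusted p = 0.000236). Without d4 G+ replicate 1 its adjusted p was 0.0143, and the count of members was then 0.

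From d4 G+ to d5 Ghigh 0.685% of genes were called higher, and 4 of the 8 antagonists were: Cer1 (3.98 ± 0.86, adjusted p = 0.00453), Sfrp1 (3.53 ± 0.38, 1.85e-07), Sfrp5 (2.27 ± 0.41, 0.000713) and Shisa2 (2.34 ± 0.35, 7.16e-05). Dkk1 differed by 1.69 ± 0.57 (adjusted p = 0.0993). Only 2 calls, Sfrp1 and Shisa2, were left without d4 G+ replicate 2. Cer1 was also lost without d4 G+ replicate 1 or d5 Ghigh replicate 3 (adjusted p = 0.0225 and 0.0637). From d5 Ghigh to d6 G+H- 1.36% of genes were called higher, and Sfrp1 (2.23 ± 0.38, adjusted p = 0.000168), Sfrp5 (3.05 ± 0.41, 7.35e-06) and Shisa2 (2.11 ± 0.35, 0.000156) rose further. Cer1 differed by 2.45 ± 0.86 here (adjusted p = 0.0902), and 14 of 15 alternatives left it uncalled. The exception, chosen after seeing the data, left out all replicate 3 arrays of the untreated series. Cer1 then differed by 3.77 with an adjusted p of 0.000344.

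**Figure D2:**
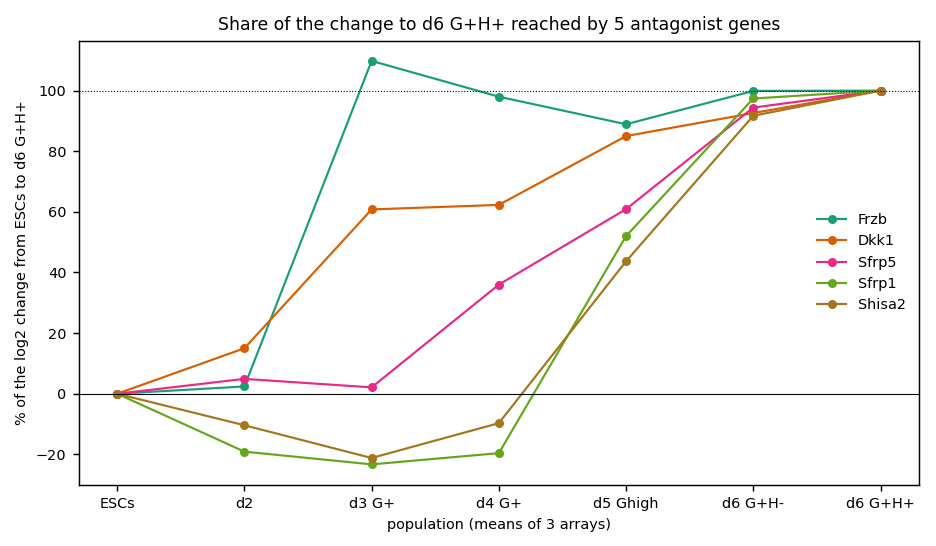
Share of the log2 change from ESCs to d6 G+H+ (y axis, %) reached in successive populations (x axis) by 5 of the 6 antagonists called higher in d6 G+H+, from means of 3 arrays. Cer1 is left out since no ESC array was well above background for it, while 1 of 3 was for Frzb and 2 of 3 for Dkk1. Frzb reached 109.8% and Dkk1 60.8% in d3 G+, Sfrp5 reached 2.1% in d3 G+ and 36.0% in d4 G+, and Sfrp1 and Shisa2 lay below their ESC level until d4 G+.

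The sort on d6 asks whether HHEX reporter expression divides the cells for these genes. None of the 8 was called between d6 G+H+ and G+H- (0% of genes called higher, with 1309 genes at an unadjusted p under 0.05 in either direction and 0 of the 8 among them). The difference was 0.58 for Cer1 (95% interval -1.17 to 2.33), 0.55 for Dkk1 (-0.61 to 1.70), 0.51 for Sfrp5 (-0.33 to 1.35) and 0.36 for Shisa2 (-0.36 to 1.08). Of the 8 intervals, that of Cer1 alone reaches past 1 in both directions. By replicate number, G+H+ minus G+H- was 0.31, 0.38 and 1.05 for Cer1, 0.27, 0.43 and 0.94 for Dkk1, 0.33, 0.65 and 0.56 for Sfrp5 and 0.01, 0.37 and 0.71 for Shisa2. It was -0.22, -1.39 and -0.04 for Nog. The sign was thus the same in 3 of 3 pairs for each of these 5 genes, and it varied for Sfrp1, Frzb and Chrd. On the 1 slide that held both populations, in arrays of different replicate number, the difference was 0.04 for Cer1, -0.13 for Dkk1, -0.49 for Sfrp5, 0.62 for Shisa2 and -0.56 for Nog. For Frzb and Sfrp1 the means differed by 0.00 and 0.13, and for Nog by -0.55 (adjusted p = 1.00). With the replicate number as a block the count was still 0.

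The comparison of GSC-expressing with G- cells of the same day asks how far the antagonists mark the streak-like cells at a fixed time in culture. On d3 0.689% of genes were called higher in G+, among them Dkk1 (3.32 ± 0.57, adjusted p = 0.000183) and Frzb (4.07 ± 0.48, 4.45e-07). The G- arrays read 7.47, 6.46 and 5.96 for Dkk1 and 5.38, 5.89 and 6.16 for Frzb, all below the G+ arrays. Cer1 in d3 G- read 5.33, 5.22 and 5.21, with 1 array well above background, and was 3.35 ± 0.86 lower than in G+ (adjusted p = 0.0158). With the replicate block Cer1 passed (adjusted p = 0.00621), as it did without d3 G+ replicate 1, its lowest G+ array (0.0038). It stayed uncalled with 9 of 15 alternatives. Within the slides that held both populations the Cer1 difference was 4.56 and 3.93. On d4 0.806% of genes were called higher in G+, and with them Dkk1 (2.99 ± 0.57, adjusted p = 0.000707), Sfrp5 (2.69 ± 0.41, 4.68e-05) and Frzb (2.16 ± 0.48, 0.00377). Only Sfrp5 was left without d4 G- replicate 3 or without d4 G+ replicate 1, and the Frzb call was also lost without any 1 of d4 G- replicate 1 and d4 G+ replicates 2 and 3 (adjusted p from 0.0115 to 0.0175). Cer1 in d4 G- read 5.81, 5.32 and 6.45 against 8.72, 8.13 and 9.88 in G+, a difference of 3.05 ± 0.86 (adjusted p = 0.0299).

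On d5 the sort made 3 populations. Sfrp5 read 8.61, 8.02 and 7.52 in G-, 9.44, 9.86 and 10.99 in Glow, and 11.40, 11.33 and 11.95 in Ghigh, with no overlap between any of the 3. Sfrp1 read 6.20, 6.55 and 6.79 in G-, 6.71, 6.88 and 8.98 in Glow, and the Ghigh arrays began at 9.21. Shisa2 read 7.52, 7.72 and 7.75 in G- and 8.05, 8.19 and 9.28 in Glow, with Ghigh from 9.56. In Ghigh against G-, where 0.946% of genes were called higher, 6 of the 8 were called: Cer1 (4.56 ± 0.86, adjusted p = 0.000593), Dkk1 (3.08 ± 0.57, 0.000461), Sfrp1 (3.25 ± 0.38, 4.36e-07), Sfrp5 (3.51 ± 0.41, 4.87e-07), Frzb (2.64 ± 0.48, 0.000349) and Shisa2 (2.69 ± 0.35, 3.52e-06). Cer1 was lost without Ghigh replicate 3 (adjusted p = 0.0124) and Dkk1 without G- replicate 3 (0.0137). In Ghigh against Glow (0.234% of genes) Sfrp1 (2.24 ± 0.38, adjusted p = 0.00118) and Shisa2 (1.85 ± 0.35, 0.006) were called. Leaving out Glow replicate 1, Glow replicate 2 or Ghigh replicate 3 ended both calls, and leaving out Glow replicate 3 added Cer1 (4.91, adjusted p = 0.000317). In Glow against G- (0.122% of genes) only Sfrp5 was called (2.05 ± 0.41, adjusted p = 0.00428), and it was lost without replicate 2 or 3 of either group.

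The replicate 3 arrays of d5 stood apart for several members. Cer1 read 10.11 in G-, 12.55 in Glow and 14.91 in Ghigh on them, against 6.81 and 8.07, 7.26 and 8.71, and 11.47 and 12.30 on the other arrays. Dkk1 in d5 G- went the other way, at 7.17 on replicate 3 against 10.12 and 8.76. Gsc also was highest on the replicate 3 arrays of d5, at 9.80, 12.41 and 14.06 in the same order, against at most 8.75, 10.21 and 12.58. The part of this difference in the results was not tested. With all replicate 3 arrays of the untreated series left out, an alternative chosen after seeing the data, 4 antagonists stayed called in Ghigh against G- and 0 in Glow against G-.

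Whether the difference between GSC-expressing and G- cells itself changed from day to day was tested directly. From d3 to d4 (0% of genes called higher, 764 at an unadjusted p under 0.05 in either direction) none of the 8 was called. Sfrp5 gained 2.64 ± 0.58 (adjusted p = 0.582) and Frzb changed by -1.91 ± 0.68 (adjusted p = 1.00), the 2 of the 8 with an unadjusted p under 0.05. From d4 (G+ minus G-) to d5 (Ghigh minus G-) 0.135% of genes were called higher, among them Sfrp1, which gained 2.97 ± 0.53 (adjusted p = 0.00574). Shisa2 gained 2.15 ± 0.50 (adjusted p = 0.0786). On d5 this test takes the Ghigh gate alone and on d4 the whole G+ gate, so day and gate cannot be told apart. The Sfrp1 call was lost when any 1 of 8 arrays was left out: d4 G- replicates 1, 2 and 3, d4 G+ replicates 2 and 3, d5 G- replicates 1 and 2, and d5 Ghigh replicate 3 (adjusted p from 0.0149 to 0.0457).

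**Figure D3:**
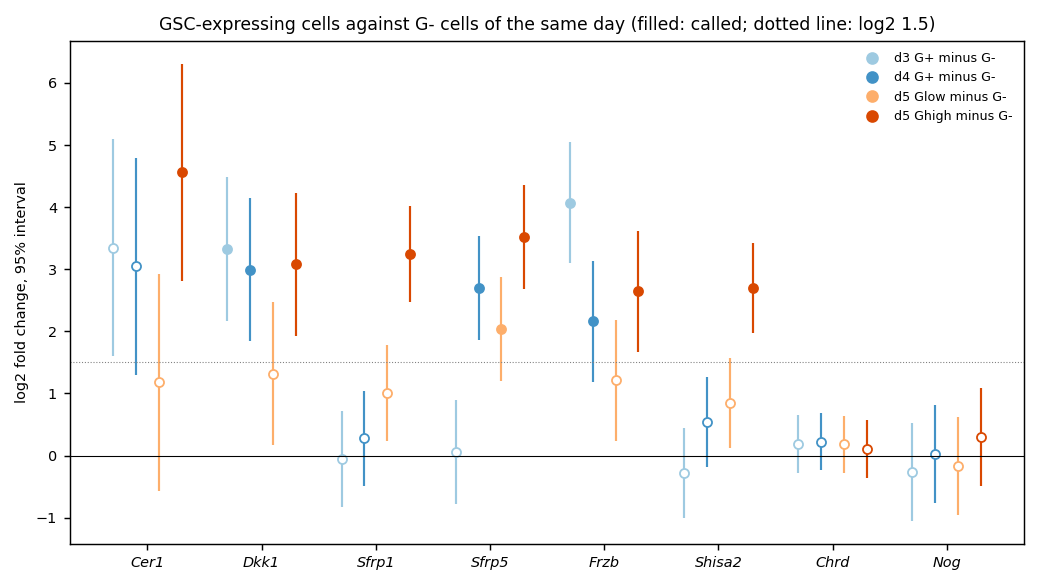
Log2 fold change (y axis, bars give the 95% interval of the limma fit, n = 3 per group) of each antagonist in G+ cells of d3 and d4 and in Glow and Ghigh cells of d5, each against G- cells of the same day. Filled points passed the call. Dkk1 and Frzb were called on d3, Dkk1, Frzb and Sfrp5 on d4, Sfrp5 in d5 Glow and 6 of the 8 in d5 Ghigh, while Chrd and Nog lie near 0.

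In the EPZ6438 series the question was whether blocking PRC2 before or during differentiation alters these genes in d6 cultures. Sfrp1 read 9.76, 10.57 and 10.02 in Control, 11.63, 11.80 and 12.25 in ADE_EPZ and 10.96, 11.27 and 11.94 in ES_EPZ. Shisa2 read 10.15, 10.75 and 9.76 in Control, 12.18, 12.54 and 12.08 in ADE_EPZ and 11.49, 11.84 and 11.73 in ES_EPZ. Sfrp5 read 13.66, 13.76 and 13.88 in Control, 15.21, 14.90 and 16.02 in ADE_EPZ and 14.92, 14.63 and 15.91 in ES_EPZ. For all 3 genes every array of both EPZ6438 regimens lay above every Control array. In ADE_EPZ against Control, where 1.91% of genes were called higher, the 3 were called: Shisa2 (2.04 ± 0.35, adjusted p = 0.000151), Sfrp1 (1.78 ± 0.38, 0.0014) and Sfrp5 (1.61 ± 0.41, 0.00779). Without Control replicate 1 or ADE_EPZ replicate 3 only Shisa2 was left, and Sfrp5 was also lost without Control replicate 2 or 3 or ADE_EPZ replicate 1 (adjusted p from 0.0187 to 0.0251). With 75th percentile scaling in place of quantile normalisation, Sfrp1 (adjusted p = 0.0132) and Sfrp5 (0.0336) also missed the call.

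Cer1 read 12.42, 13.23 and 12.29 in Control, 14.69, 15.18 and 15.32 in ADE_EPZ and 14.69, 14.49 and 15.50 in ES_EPZ, again without overlap. The ADE_EPZ difference of 2.42 ± 0.86 was not called (adjusted p = 0.0697) with the spread shared over all 14 groups, where the SD of Cer1 ran from 0.06 to 2.74. With Control and ADE_EPZ alone in the fit it was called (adjusted p = 0.00146). It stayed uncalled with 13 of 14 alternatives, with an adjusted p of up to 0.197. Frzb read 7.98, 8.14 and 7.36 in Control and 9.08, 9.50 and 8.18 in ADE_EPZ, a difference of 1.09 ± 0.48 (adjusted p = 0.172). Dkk1 differed by 0.18 (95% interval -0.98 to 1.33), Chrd by 0.09 (-0.38 to 0.55) and Nog by -0.20 (-0.99 to 0.59).

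Cells treated only as ESCs gave smaller differences on d6. None of the 8 antagonists was called in ES_EPZ against Control, where 0.351% of genes were called higher, although 4 had an unadjusted p under 0.05: Cer1 (2.25 ± 0.86, adjusted p = 0.207), Shisa2 (1.46 ± 0.35, 0.0232), Sfrp5 (1.39 ± 0.41, 0.0757) and Sfrp1 (1.28 ± 0.38, 0.0749). Arrays did not overlap and were higher than Control for 5 of the 8 in ADE_EPZ, against 19.8% of all genes, and for 4 of the 8 in ES_EPZ, against 13.8%. The regimens share the Control arrays. Compared directly, none of the 8 was called between ADE_EPZ and ES_EPZ (0.113% of genes higher, 2848 genes at an unadjusted p under 0.05 in either direction, 0 of the 8 among them). Of the 8, Frzb had the largest difference for ADE_EPZ minus ES_EPZ, 0.97 ± 0.48 (interval -0.0005 to 1.94). Its unadjusted limma p of 0.0501 lay just above the cutoff (adjusted p = 0.558). Against Control, Frzb differed by 1.09 in ADE_EPZ and by 0.12 in ES_EPZ. The intervals for ADE_EPZ minus ES_EPZ were -0.14 to 1.30 for Shisa2, -0.26 to 1.27 for Sfrp1 and -1.58 to 1.92 for Cer1.

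Each of the 3 slides of this series held 1 array of every regimen. Within slides the ADE_EPZ difference was 1.33, 2.42 and 2.39 for Shisa2, 1.69, 1.62 and 2.04 for Sfrp1, and 2.08, 2.41 and 2.76 for Cer1. The sign was thus the same on all slides for these genes, whereas Dkk1 gave 0.78, -1.22 and 0.97. Other cell type markers moved with the regimen. The mean of the 7 anterior definitive endoderm markers was 11.40 to 11.89 on Control arrays and 12.41 to 12.92 on ADE_EPZ arrays, and Hhex was called higher (2.23 ± 0.40, adjusted p = 0.000217). The mean of 5 mesoderm markers was 9.19 to 9.47 in Control and 8.40 to 8.80 in ADE_EPZ, with 0 of 5 called, and that of 5 pluripotency genes was 6.97 to 7.44 and 8.06 to 8.41, with Zfp42 called higher (1.51 ± 0.34). The mean of 6 visceral endoderm markers was 7.45 to 7.73 and 7.75 to 8.35, with 0 of 6 called and Afp above background on all arrays of both. The part of these cells in the difference was not tested.

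**Figure D4:**
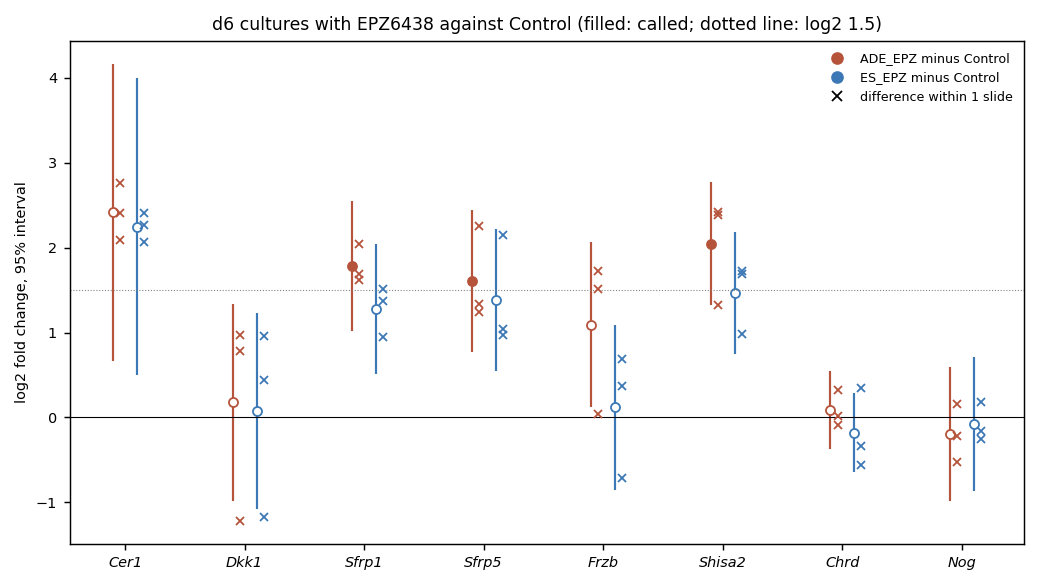
Log2 fold change against Control (y axis, bars give the 95% interval of the limma fit, n = 3 per group) of each antagonist in ADE_EPZ and ES_EPZ, with crosses for the differences within each of 3 slides. Filled points passed the call. Sfrp1 (1.78), Sfrp5 (1.61) and Shisa2 (2.04) were called in ADE_EPZ, and Cer1 (2.42) has the widest interval.

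The order of the 14 groups differed between the genes. The EPZ6438 series and the untreated series share no slide and no scan day, so a level of one set against a level of the other also spans these. Sfrp1, Shisa2 and Cer1 had their highest mean in d6 G+H+, followed by d6 G+H-, ADE_EPZ and ES_EPZ, and in all of these neighbours the arrays overlapped except Shisa2 between ADE_EPZ and ES_EPZ. Sfrp5 was highest in ADE_EPZ (15.38 ± 0.58, SD, n = 3) and ES_EPZ (15.15 ± 0.67), both overlapping d6 G+H+ (15.13 ± 0.48). For Dkk1 the Control, ES_EPZ and ADE_EPZ means lay within 0.18 of each other and just below d5 Ghigh. Frzb alone was highest in d3 G+ (9.88 ± 0.88), which overlapped both d6 populations and d4 G+. The Control arrays overlapped those of d5 Ghigh for Cer1, Dkk1, Sfrp1 and Shisa2, lay below all of them for Frzb and above all of them for Sfrp5.

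Over the 14 group means the patterns were most alike for Sfrp1 and Shisa2 (Pearson r = 0.99) and least alike, among the 6 genes that rose, for Sfrp1 and Frzb (r = 0.50). These are descriptions over groups that were normalised together and share slides within each series. The same measure was used to find, among 15481 named genes above background in a group, the 2 most like each antagonist. They were Cbln1 and Kif1b for Cer1 (both r = 0.99), Podn and Rep15 for Dkk1 (both r = 0.98), Plxna2 (r = 0.96) and Optc (r = 0.95) for Frzb, Baiap2l1 and Creb3l1 for Sfrp5 (both r = 0.99), Myorg and Plekhm3 for Sfrp1 (both r = 0.99), and Ano2 and Best2 for Shisa2 (both r = 0.99). For the level genes the likeness was lower, with Zfp84 (r = 0.88) and Ctsk (r = 0.86) for Chrd and Il6ra (r = 0.86) and 1700022I11Rik (r = 0.81) for Nog. Group means of Chrd and Nog spanned only 0.42 and 0.94, beside median SDs within a group of 0.22 and 0.42. Their matches, picked as the highest of 15481 correlations over 14 means, therefore show no shared pattern.

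Other inhibitors of the same pathways were counted in the same way. In d6 G+H+ against ESCs 5.72% of all genes were called higher and 5.21% lower. Of 17 other Wnt antagonists, 1 was called higher, Rnf43 (2.24 ± 0.27), a ligase that removes Frizzled receptors, and 3 were called lower: Sfrp4 (-3.54 ± 0.33), Sfrp2 (-2.65 ± 0.22) and Dkk3 (-1.91 ± 0.38). Their median change was -0.20. Secreted Frizzled-related genes thus went in opposite directions, Sfrp1, Sfrp5 and Frzb higher and Sfrp2 and Sfrp4 lower. Of 14 other antagonists of BMP, activin and Nodal, 4 were called higher and 0 lower (median 0.58): Bmper and Twsg1 (2.33 ± 0.16), which bind BMPs, and the Nodal inhibitors Lefty1 (3.27 ± 0.64) and Lefty2 (3.14 ± 0.58). Bmper was not well above background on any ESC array. Bmper, like Frzb, was called higher from d2 to d3 G+ (4.72 ± 0.48), together with the activin binder Fst (3.39 ± 0.35).

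Receptors of the Wnt and BMP pathways were counted as well. In d6 G+H+ against ESCs, 4 of 12 Wnt receptors and co-receptors were called higher and 2 lower (median 1.00). The largest changes were those of Fzd8 (4.12 ± 0.42) and Fzd5 (4.04 ± 0.46). Both rose from d4 G+ to d5 Ghigh, by 3.15 ± 0.42 and 3.13 ± 0.46, the step at which Sfrp1 and Shisa2 rose. None of 6 BMP receptors was called (median 0.83). From d2 to d3 G+, where 2.95% of all genes were called higher, 4 of 9 Wnt target genes were (median 1.18). Among them were Sp5 (4.24 ± 0.59) and T (3.88 ± 0.50). From d5 Ghigh to d6 G+H-, where 0.752% of all genes were called lower, 6 of the 9 were called lower and 0 higher (median -1.77), among them T (-2.65 ± 0.50), Nkd1 (-2.46 ± 0.43) and Sp5 (-2.37 ± 0.59). Lgr5, also on that list, was not called at this step but was called higher from d4 G+ to d5 Ghigh (2.53 ± 0.36). In d6 G+H+ against ESCs Lgr5 alone of the 9 was called higher (4.89 ± 0.36). There 3 were called lower, with Cdx1 (-4.10 ± 0.44) and Ccnd1 (-3.54 ± 0.31) the largest, beside 5.21% of all genes. Of 7 BMP target genes, 1 was called lower from d5 Ghigh to d6 G+H-, Msx1 (-2.86 ± 0.60). Id3 was the 1 called higher in d6 G+H+ than in ESCs (2.46 ± 0.29).

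In ADE_EPZ against Control 0.779% of all genes were called lower and 1.91% higher. Of the 9 Wnt target genes 3 were called lower and 0 higher (median -1.03): Sp5 (-2.97 ± 0.59, adjusted p = 0.000703), Lef1 (-1.76 ± 0.36, 0.00094) and Axin2, which was not well above background on any ADE_EPZ array (adjusted p = 0.000257). Of the 7 BMP target genes 2 were called lower (median -1.14), Msx2 (-3.45 ± 0.66, adjusted p = 0.000433) and Smad6 (-2.28 ± 0.58, 0.00727). Sp5 arrays read 11.93, 11.92 and 12.30 in Control and 9.19, 9.62 and 8.43 in ADE_EPZ, without overlap. The 17 other Wnt antagonists gave 0 higher and 2 lower, Apcdd1 (-2.75 ± 0.61) and Igfbp4 (-1.87 ± 0.41), and the 14 other BMP, activin and Nodal antagonists gave 1 higher, Lefty2 (2.23 ± 0.58). None of these genes was called in ES_EPZ against Control.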

How the data were processed

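Total RNA of ESCs, d2 cells, 9 sorted populations and 3 d6 cultures of the EPZ6438 series was hybridised to 42 one-colour Agilent arrays. The authors deposited scanner files with intensity per spot and 1 table of log2 values, made with limma by normexp background correction (offset of 10) and quantile normalisation. Spots of a probe were averaged without those marked as outliers. Recomputing the deposited log2 values from the intensity files gave a correlation of at least 0.999981 on every array. Genes are RefSeq accessions of the scanner files, named through RefSeq GRCm38.p6, each by its probe with the largest mean. limma 3.58.1 fitted 1 linear model to all arrays, with a mean for each group (R 4.3.3, statmod 1.5.0) and Benjamini-Hochberg adjustment over 55681 probes of a comparison, and was tested on simulated data. Near background, changes are too small. Permuting 3 arrays against 3 gives no p small enough, so p values are those of limma. The members and gene lists were chosen with earlier results of these data known. Named beside the members are the 2 genes most like each and, per list and comparison, up to 3 called genes with the largest change, while further marker genes were chosen after their values were seen. The main fit used no pairing of arrays, and the replicate block was an alternative to it. Replicate numbers were taken as a possible pairing where all 3 same-numbered pairs correlated above 0.1 in their deviations. This held for d3 G+ with d2, G+ with G- on d3 and on d4, and Glow with G- and Ghigh with Glow on d5. It also held for G+H- with ESCs, G+H- with Ghigh, G+H+ with G+H- and ADE_EPZ with ES_EPZ. This cutoff does not by itself show pairing: d3 G+ replicate 2 correlated most with d2 replicate 1, and d6 G+H- replicate 1 with ESC replicate 2.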

Additional observations from a re-analysis of the deposited data

Results flagged for a closer look

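Sfrp1 was called in the direct test from d4 to d5. Its difference from G- cells was 2.97 larger on the log2 scale in d5 Ghigh than in d4 G+. The limma adjusted p was 0.00574, with 3 arrays per group. The G+ to G- difference was 0.28 on d4 and the Ghigh to G- difference 3.25 on d5. The Glow to G- difference on d5 was 1.01 and not called. Day and sort gate both change in this test and cannot be told apart. Leaving out each of the 12 arrays in turn kept the sign, and ended the call for the 8 arrays named above.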

How the results depend on the processing

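Over 64 differences of a member of at least 1 in size, 887 of 981 alternative values kept the call and the sign, 81 lost a call, 12 gained one and 1 changed sign. The change of sign was Cer1 in Glow against G-, not called in any setting, which ran from -0.35 (without Glow replicate 3) to 2.30 with 1 array left out at a time. Counts of called members within 1.5 times the value given are not repeated. With 75th percentile scaling the count was 0 in Glow against G-, 1 in Ghigh against Glow, 1 in ADE_EPZ against Control and 0 for the change from d4 to d5. With only the compared groups in the fit, which leaves fewer arrays to estimate the spread, it was 0 in d4 G+ against d3 G+, in d5 Ghigh against d4 G+, in d6 G+H- against d5 Ghigh, in Glow against G-, in Ghigh against Glow and for the change from d4 to d5, and 2 in Ghigh against G-. With slide as a fixed block it was 1 in Ghigh against Glow and 0 for the change from d4 to d5. Without all replicate 3 arrays of the untreated series, chosen after seeing the data, it was 0 in d4 G+ against d3 G+, in Glow against G- and for the change from d4 to d5. Leaving out 1 array at a time gave 0 to 1 in d4 G+ against d3 G+, 2 to 4 in d5 Ghigh against d4 G+, 1 to 3 in d4 G+ against G-, 0 to 1 in Glow against G-, 0 to 3 in Ghigh against Glow, 1 to 3 in ADE_EPZ against Control and 0 to 1 for the change from d4 to d5. The replicate block gave 3 members in place of 2 in d3 G+ against G-, by Cer1, and changed no other call of a member. A mean over all probes of a gene could not be tried, since each member has 1 probe. Precision is limited by 3 arrays per group and, for Cer1, Dkk1 and Frzb in ESCs and d2, by signal near background.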
